A study of Mus musculus with 64 samples.

Results

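The DNA damage response and apoptosis genes are 37 genes taken by symbol from the deposited RNA-Seq tables, which list 26385 genes. All 37 symbols were found, once each. By role they comprise 5 genes of the p53 family and its regulators (Trp53, Trp63, Trp73, Mdm2 and Mdm4), 4 arrest and stress effectors (Cdkn1a, Gadd45a, Gadd45b and Gadd45g) and 13 genes of the apoptosis machinery (Bax, Bak1, Bbc3, Pmaip1, Bcl2, Bcl2l1, Mcl1, Bcl2l11, Bid, Apaf1, Casp8, Casp9 and Fas). The remaining members are 9 checkpoint kinases and mediators (Atm, Atr, Chek1, Chek2, Brca1, Brca2, H2afx, Mdc1 and Trp53bp1) and 6 genes of break sensing and end joining (Rad50, Mre11a, Nbn, Xrcc5, Xrcc6 and Parp1). Each was counted in 47 RNA-Seq libraries, of which 20 came from sorted germ cells and 27 from whole testis. No member passed the test in Morc1tg/tg germ cells at E16.5, E18.5 or P2.5, where 0.421%, 0.0416% and 0.0486% of all genes tested did. At P10.5 7 members passed in germ cells, 20.6% of those tested against 12.2% of all genes tested. Of these calls 3 were kept under every alternative run. No member passed a test of whether the effect differed between E16.5 and P10.5. In Morc1tg/tg testis the members that fell were mostly checkpoint genes. There 22.2% of the members tested passed at P10.5 and 32.4% at P14.5, against 15.3% and 34.8% of all genes tested. All 11 markers of early meiosis were lower at both ages too. In Dnmt3l-/- testis 62.2% of the members changed, against 53.9% of all genes tested.

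When DNA breaks, the kinases ATM and ATR are recruited to the damage, phosphorylate the histone H2AX around it and activate the checkpoint kinases CHK2 and CHK1. Their target p53 is a transcription factor that MDM2 and MDM4 hold in check. Once freed, it raises the transcription of Cdkn1a, which arrests the cell cycle, and of Bbc3, Pmaip1 and Bax, which open the mitochondrial pathway of apoptosis. In the male germ line these proteins also have a programmed use, since meiotic cells make breaks on purpose, repair them with BRCA1 and BRCA2, and coat the unpaired sex chromosomes with phosphorylated H2AX, for which ATR and MDC1 are needed.

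The study asked what the nuclear ATPase MORC1 does in the mouse male germ line. Its Morc1tg allele is an insertion of a tyrosinase transgene that removed exons 2–4 of Morc1, on the FVB/N background. Libraries labelled Morc1 KO are called Morc1tg/tg here and those labelled Morc1 het Morc1tg/+. Germ cells of Morc1tg/+ and Morc1tg/tg males were sorted at embryonic days E16.5 (2 and 2 libraries) and E18.5 (2 and 2) and at postnatal days P2.5 (3 and 2) and P10.5 (4 and 3). Until P2.5 the cells were sorted on an Oct4-IRES-eGfp reporter and the mice were of mixed background, whereas the P10.5 cells were sorted as side scatter low, EPCAM high and H2-Kq negative from FVB/N mice. Whole testis of the Morc1 line was taken at P10.5 (3 Morc1tg/tg, 2 Morc1tg/+ and 1 Morc1+/+) and at P14.5 (3 Morc1tg/tg and 3 Morc1tg/+). A preliminary pair of 1 Morc1tg/+ and 1 Morc1+/+ testis entered no main comparison. At P10.5, testis was also taken from mice without Dnmt3l, the cofactor of de novo DNA methylation (3 Dnmt3l-/-, 3 Dnmt3l+/- and 3 Dnmt3l+/+). A last set of P10.5 testes came from mice labelled Miwi2 KO and Miwi2 het (2 and 2), Miwi2 being a protein of the piRNA pathway also named Piwil4. The controls of the Miwi2 line and of the sorted cells thus all carried 1 mutant allele. Each library was made from 1 mouse, so the spread between libraries is a spread between animals.

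Levels are given as RPKM, the deposited reads per kilobase of exons scaled to sequencing depth. Tests were run on the raw read counts with edgeR's quasi-likelihood test, with p-values adjusted by Benjamini-Hochberg over every gene tested and a limit of 0.05. A log2 fold change is that of edgeR's fit, with its standard error (SE), and a gene is said to have risen or fallen only where it passed that limit. Where members are counted at an unadjusted p under 0.05, the share of all genes was not computed. Reads on genes numbered 2413679 to 14918478 in the sorted libraries and 22509570 to 42137954 in the testis libraries. Sorted cells and testis were prepared with different kits. Those of the first took rRNA-depleted total RNA, and those of the second used TruSeq v2, which the study calls mRNA sequencing. Kit and tissue thus cannot be told apart, and levels are compared within each only. Morc1 was below all controls in every Morc1tg/tg group, and Dnmt3l fell by 3.93 on the log2 scale in Dnmt3l-/-. Piwil4 was at 10.7 and 11.6 RPKM in the libraries labelled Miwi2-/- and at 6.65 and 7.01 RPKM in their controls. It was thus higher in the labelled mutants (log2 fold change 0.69, SE 0.0742, adjusted p = 0.000746, edgeR), and whether the counted reads lie in a deleted stretch was not found in the sources. The sorted control libraries held all 10 germ cell markers, with a summed level of 934 to 1219 RPKM at E16.5 and 423 to 513 RPKM at P10.5. The 10 markers of Sertoli cells, the supporting cells of the tubule, summed to 33.2 to 45.6 RPKM and 79.4 to 133 RPKM in the same libraries. In bulk RNA, fewer cells of a type and less RNA per cell cannot be told apart.

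In control germ cells the members ranged from no read to over 100 RPKM. At E16.5 the highest were Mdm2, the ubiquitin ligase that marks p53 for destruction, at 123 ± 21.0 RPKM (SD, n = 2), and Parp1, which attaches ADP-ribose chains at DNA breaks, at 123 ± 23.1 RPKM (SD, n = 2). Their libraries overlapped, so these neighbours in the order did not differ beyond their spread. Rad50, the structural part of the complex that holds broken ends, came next at 40.8 ± 5.01 RPKM (SD, n = 2). The lowest was Bcl2, which blocks mitochondrial permeabilization, at 0.274 ± 0.0715 RPKM (SD, n = 2). Its relative Bcl2l1, which encodes BCL-XL, stood far above it at 27.0 ± 0.995 RPKM (SD, n = 2). At P10.5 the histone gene H2afx was first at 162 ± 43.7 RPKM (SD, n = 4), followed by Parp1 at 83.3 ± 6.28 RPKM (SD, n = 4) and Mdm2 at 39.2 ± 3.58 RPKM (SD, n = 4). Each H2afx library was above every Parp1 library, and each of these above every Mdm2 library. Trp53 was at 22.9 ± 1.76 RPKM (SD, n = 4). Its paralogs Trp63 and Trp73 and the death receptor gene Fas were near the floor, with means of 0.116, 0.0532 and 0.0329 RPKM. In control testis at P10.5, Parp1 led at 109 ± 2.59 RPKM (SD, n = 3), the pore-forming Bax followed at 60.2 ± 0.954 RPKM (SD, n = 3), and the survival gene Mcl1 was at 51.0 ± 1.74 RPKM (SD, n = 3). Trp73 was last at 0.0429 ± 0.0110 RPKM (SD, n = 3). Fas had no read in 7 of the 47 libraries and Gadd45b in 4, Trp73 had none in 2, and Bbc3, Gadd45g, Bcl2 and Bak1 had none in 1 each.

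**Figure D1:**
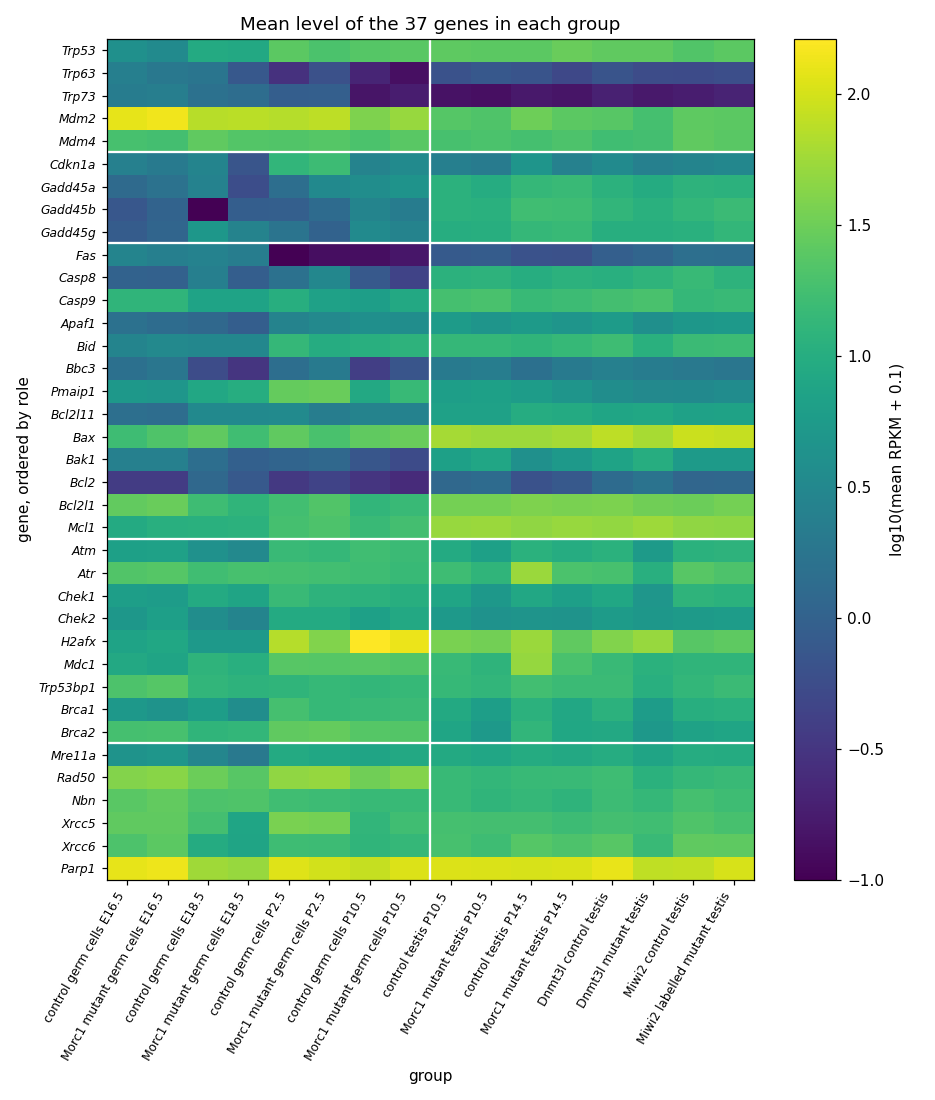
Mean level of each of the 37 genes (rows, ordered by role, white lines between roles) in each of 16 groups (columns, sorted germ cells left of the white line and whole testis right of it), as log10 of mean RPKM + 0.1. Parp1 is bright in every column, H2afx brightens from E16.5 (mean 7.23 RPKM in controls) to P10.5 (162 RPKM), and Trp73 and Fas are dark in germ cells at P10.5.

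Stage was compared in Morc1tg/+ germ cells, with the 11 control libraries fitted together. Each stage serves on either side of a step and again as the control of the mutants, so these comparisons share samples. From E16.5 to E18.5, 5 members rose and 7 fell. They were 32.4% of the members tested, against 18.7% of all 16890 genes tested. Trp53 was at 3.46 and 4.58 RPKM at E16.5 and at 11.5 and 6.53 RPKM at E18.5. Both later libraries were the higher (log2 fold change 1.17, SE 0.199, adjusted p = 0.000609, edgeR). Its inhibitor Mdm2 was at 108 and 138 RPKM and then at 78.1 and 66.7 RPKM. Both later libraries were the lower (log2 fold change -0.74, SE 0.152, adjusted p = 0.00255, edgeR). Parp1 went from 107 and 139 to 62.7 and 48.6 RPKM, again without overlap (log2 fold change -1.13, SE 0.122, adjusted p = 1.39e-05, edgeR). Xrcc6, which encodes the Ku70 subunit that caps broken ends, went from 17.2 and 23.8 to 10.2 and 8.64 RPKM, a fall that also separated the stages (log2 fold change -1.10, SE 0.190, adjusted p = 0.000697, edgeR). The checkpoint members Atm (-0.66, SE 0.128), Brca2 (-0.51, SE 0.108) and Trp53bp1 (-0.66, SE 0.123) fell on the log2 scale (adjusted p from 0.00132 to 0.00349, edgeR).

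The other calls of that step were weaker. Bcl2l11, which encodes the death-promoting BIM (1.22, SE 0.304), Gadd45g (2.70, SE 0.823), Mdm4 (0.53, SE 0.149) and Mdc1 (0.52, SE 0.146) rose on the log2 scale (adjusted p from 0.00961 to 0.0310, edgeR). Casp9, the initiator caspase of the mitochondrial pathway, fell (log2 fold change -0.82, SE 0.276, adjusted p = 0.0485, edgeR). All 5 were lost in edgeR's test without E16.5 replicate 1, which left 7 members (adjusted p from 0.107 to 0.234). Each was also lost without at least 1 other library, E16.5 replicate 2 taking Mdm4, Bcl2l11, Casp9 and Gadd45g, E18.5 replicate 1 Gadd45g and E18.5 replicate 2 Mdm4, Casp9 and Mdc1. Gadd45b had 34 reads at E16.5 and none at E18.5, at least 3.91-fold lower against a floor of 3 counts in the E18.5 group, and did not pass (log2 fold change -6.42, SE 2.79, adjusted p = 0.130, edgeR). Of 48 other checkpoint and break repair genes, 14 fell and none rose, and of 30 other apoptosis genes 7 fell. Of 29 p53 target genes 2 rose and 2 fell, and of 27 excision and mismatch repair genes 1 rose and 4 fell. These calls made 13.8% of the p53 targets, 23.3% of the apoptosis genes and 29.2% of the checkpoint and break repair genes, against 18.7% of all genes tested, and the share of the excision and mismatch repair genes was near the last. Germ cell markers moved with this step, from sums of 934 to 1219 RPKM at E16.5 to sums of 740.1 to 832 RPKM at E18.5 (5 of 10 lower and 2 higher). Of the markers of undifferentiated spermatogonia 5 of 10 were higher and 2 lower. Endothelial markers went from sums of 18.4 to 21.2 RPKM to sums of 36.0 to 42.2 RPKM (1 of 6 higher). The sums overlapped for pachytene (2 of 10 lower), Sertoli cells (1 of 10 higher and 1 lower) and Leydig cells (1 of 6 lower). Summed levels at E16.5 and at E18.5 were 138 to 164 and 153 to 167 RPKM for early meiosis (4 of 11 higher), 59.3 to 69.9 and 40.3 to 78.6 RPKM for differentiating spermatogonia (2 of 6 higher and 1 lower), 20.3 to 23.3 and 24.2 to 25.7 RPKM for peritubular and stromal cells (none of 8 passing) and 5.68 to 7.32 and 4.42 to 4.94 RPKM for macrophages (none of 4 passing). Their part in the result was not tested.

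The next step, across birth, moved more members than any other between germ cell stages. From E18.5 to P2.5, 17 members rose and 5 fell, 59.5% of those tested against 39.1% of all 16890 genes tested. The members had a median log2 fold change of 0.51, against -0.07 over all genes tested. Of the 9 checkpoint genes 6 rose, with a median log2 fold change of 0.90, against -0.07 over all genes tested. H2afx was at 6.54 and 4.30 RPKM at E18.5 and at 56.1, 74.7 and 84.6 RPKM at P2.5. Every later library was higher, and the rise was the largest among the members called (log2 fold change 3.56, SE 0.295, adjusted p = 3.42e-07, edgeR). Atm went from 4.42 and 3.86 to 13.5, 14.7 and 16.2 RPKM (log2 fold change 1.66, SE 0.123, adjusted p = 1.29e-07, edgeR). Brca1 went from 6.36 and 5.50 to 17.5, 16.4 and 20.8 RPKM (log2 fold change 1.44, SE 0.129, adjusted p = 7.14e-07, edgeR). Neither gene overlapped between the stages. Chek2 (1.11, SE 0.270), Brca2 (0.90, SE 0.102) and Mdc1 (0.77, SE 0.136) were the other checkpoint genes that rose on the log2 scale (adjusted p from 6.87e-06 to 0.00430, edgeR).

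Break sensing and end joining genes rose in 5 of 6 cases and fell in 1, Nbn (log2 fold change -0.50, SE 0.160, adjusted p = 0.0223, edgeR). Mre11a, the nuclease partner of Rad50, went from 3.81 and 1.93 to 9.54, 9.20 and 8.06 RPKM, all later libraries higher (log2 fold change 1.49, SE 0.238, adjusted p = 0.000167, edgeR). Parp1 (0.83, SE 0.113), Xrcc5 (0.81, SE 0.231), Xrcc6 (0.60, SE 0.178) and Rad50 (0.44, SE 0.119) followed on the log2 scale (adjusted p from 4.06e-05 to 0.0142, edgeR). Trp53 continued upward, from 11.5 and 6.53 to 21.4, 25.2 and 28.6 RPKM (log2 fold change 1.31, SE 0.183, adjusted p = 4.87e-05, edgeR). Among the genes that p53 is known to induce were Cdkn1a and Pmaip1, which rose, and Fas, which fell. Cdkn1a, which encodes the cell cycle inhibitor p21, was at 3.39 and 2.04 RPKM and then at 4.90, 17.6 and 15.6 RPKM. Pmaip1, which encodes NOXA, was at 10.1 and 6.66 RPKM and then at 19.5, 32.2 and 32.6 RPKM. In both, P2.5 replicate 1 was the lowest of its group and still above the E18.5 libraries. The rise was 2.07, SE 0.487, adjusted p = 0.00347, for Cdkn1a and 1.58, SE 0.253, adjusted p = 0.000167, for Pmaip1 on the log2 scale (edgeR). Mdm2 (-0.20, SE 0.139, adjusted p = 0.259), Bax (-0.19, SE 0.266, adjusted p = 0.601) and Bbc3 (1.50, SE 1.28, adjusted p = 0.373), also induced by p53 elsewhere, did not pass edgeR's test. Neither did Gadd45a, at 2.52 ± 1.15 RPKM (SD, n = 2) at E18.5 and 1.34 ± 1.35 RPKM (SD, n = 3) at P2.5. Fas fell from 56 reads at E18.5 to none at P2.5.

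In the rest of the apoptosis machinery, Bid, whose product carries the signal from death receptors to mitochondria, went from 3.25 and 2.58 to 13.9, 11.9 and 15.6 RPKM. The stages were well apart (log2 fold change 2.06, SE 0.243, adjusted p = 1.01e-05, edgeR). Apaf1, the scaffold on which caspase 9 is activated (1.09, SE 0.292), and Mcl1 (0.55, SE 0.180) rose on the log2 scale (adjusted p from 0.00802 to 0.0242, edgeR). Trp63, the p63 gene, went from 1.24 and 2.08 to 0.332, 0.183 and 0.0521 RPKM, all later libraries lower (log2 fold change -3.45, SE 0.723, adjusted p = 0.00154, edgeR). Bcl2 (-2.45, SE 0.764) and Mdm4 (-0.46, SE 0.136) fell as well (adjusted p from 0.0145 to 0.0189, edgeR). Fas had 56 reads in the E18.5 libraries and none in the 3 P2.5 libraries, at least 38.1-fold lower with a floor of 3 counts for the whole P2.5 group (adjusted p = 0.00199, edgeR). Gadd45b went from no read to 15, at least 2.45-fold higher with the same floor for the E18.5 group, and did not pass (log2 fold change 6.54, SE 2.76, adjusted p = 0.0737, edgeR).

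Several of these calls rested on few libraries. In edgeR's test Bcl2, Apaf1, Mdm4 and Nbn were lost without E18.5 replicate 2 (adjusted p from 0.0616 to 0.266) and Mcl1, Rad50 and Xrcc5 without E18.5 replicate 1 (adjusted p from 0.0771 to 0.196). Bcl2, Mcl1 and Nbn were lost without P2.5 replicate 3 (adjusted p from 0.0507 to 0.0647, edgeR). At the median gene the fitted log2 fold changes lay 0.18 below those of the RPKM values over this step, 0.28 above them between P2.5 and P10.5, and 0.11 above them for Morc1tg/tg at E18.5, and no called member had the opposite sign in RPKM. Markers of undifferentiated spermatogonia moved with the step, from sums of 131 to 187 RPKM at E18.5 to sums of 398 to 490.2 RPKM at P2.5 (8 of 10 higher). Markers of differentiating spermatogonia went from sums of 40.3 to 78.6 RPKM to sums of 149.7 to 172 RPKM (3 of 6 higher). Pachytene markers went from sums of 69.9 to 76.3 RPKM to sums of 42.2 to 50.1 RPKM (4 of 10 tested lower). Peritubular and stromal markers went from sums of 24.2 to 25.7 RPKM to sums of 9.91 to 14.2 RPKM (4 of 8 lower). Endothelial markers went from sums of 36.0 to 42.2 RPKM to sums of 17.6 to 21.9 RPKM (3 of 6 lower). Other marker sums at E18.5 and at P2.5 were 153 to 167 and 212 to 279 RPKM for early meiosis (3 of 11 higher and 1 lower), 4.83 to 6.94 and 2.28 to 4.36 RPKM for Leydig cells (1 of 6 higher and 2 lower) and 13.8 to 27.4 and 0 to 1.91 RPKM for blood (1 of 2 lower). Germ cell markers overlapped (2 of 10 higher and 3 lower), as did those of Sertoli cells (1 of 10 higher and 2 lower). Their part in the result was not tested.

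The other genes of these pathways, none of them a member, were read from 4 lists. Among 29 p53 target genes, 6 rose and 6 fell from E18.5 to P2.5. Bcl6 (-3.98, SE 0.403) and Perp (-3.76, SE 0.797) fell and Gtse1 (2.84, SE 0.711) and Btg2 (2.15, SE 0.353) rose on the log2 scale (adjusted p from 2.27e-06 to 0.00523, edgeR). Of 48 checkpoint and double-strand break repair genes, 22 rose and 1 fell, with a median log2 fold change of 0.64, against -0.07 over all genes tested. Fanci, of the crosslink repair pathway, had the largest rise (log2 fold change 5.43, SE 0.431, adjusted p = 2.35e-07, edgeR), and Rad54l, of homologous recombination, was among them (log2 fold change 2.65, SE 0.326, adjusted p = 1.53e-05, edgeR). Of 30 other apoptosis genes 10 rose and 1 fell. The death receptor adaptors Tradd (4.24, SE 1.10) and Fadd (3.79, SE 0.747) rose (adjusted p from 0.000960 to 0.00678, edgeR). Of 27 base, nucleotide and mismatch repair genes 9 rose and 2 fell. In all 41.4% of the p53 targets, 36.7% of the apoptosis genes, 47.9% of the checkpoint and break repair genes and 40.7% of the excision and mismatch repair genes were called, against 39.1% of all genes tested. The shares of the p53 targets, the apoptosis genes and the excision and mismatch repair genes were thus near that of all genes.

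Between P2.5 and P10.5 the sort and the strain background changed with the age and cannot be told apart from it. Over that step 4 members rose and 6 fell, 27.0% of those tested, a share near that of 27.6% of all 16890 genes tested. Cdkn1a came down to 3.28, 1.96, 2.91 and 2.40 RPKM, below every P2.5 library (log2 fold change -2.00, SE 0.368, adjusted p = 0.000811, edgeR). Pmaip1 came down to 8.43, 10.7, 7.02 and 7.85 RPKM, likewise without overlap (log2 fold change -1.44, SE 0.195, adjusted p = 5.91e-05, edgeR). Mdm2 was at 54.9, 78.5 and 80.6 RPKM at P2.5 and at 41.3, 42.5, 38.5 and 34.5 RPKM at P10.5, all later libraries lower (log2 fold change -0.58, SE 0.116, adjusted p = 0.00148, edgeR). Trp53, at 24.5, 21.6, 21.1 and 24.3 RPKM, overlapped its P2.5 values and did not pass. H2afx continued to rise, to 177, 101, 205 and 165 RPKM, above all P2.5 libraries (log2 fold change 1.45, SE 0.195, adjusted p = 5.40e-05, edgeR). Trp73 went from 0.221, 1.07 and 1.13 to 0.0478, 0.0547, 0.110 and 0 RPKM, all later libraries lower (log2 fold change -3.61, SE 0.743, adjusted p = 0.00186, edgeR). Xrcc5, the gene of Ku80, went from 35.0, 33.7 and 39.9 to 14.6, 12.5, 12.5 and 12.6 RPKM, with no overlap (log2 fold change -1.19, SE 0.185, adjusted p = 0.000197, edgeR).

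Apaf1 (0.84, SE 0.226), Atm (0.46, SE 0.0943) and Trp53bp1 (0.36, SE 0.0950) also rose on the log2 scale, and Rad50 (-0.28, SE 0.0970) fell (adjusted p from 0.00194 to 0.0403, edgeR). The libraries of Atm and Trp53bp1 overlapped between the stages. The call on Rad50 was lost without P2.5 Morc1tg/+ replicate 2 or 3 or P10.5 Morc1tg/+ replicate 1, 2, 3 or 4 (adjusted p from 0.0576 to 0.113), and those on Apaf1 and Trp53bp1 without P2.5 replicate 3 (adjusted p = 0.0515 and 0.0510, edgeR). In the lists outside the members, 2 of 29 p53 targets rose and 5 fell, Zmat3 among the latter (log2 fold change -1.22, SE 0.224, adjusted p = 0.000779, edgeR). Of 48 checkpoint and break repair genes 10 rose and 2 fell, of 30 apoptosis genes 5 rose and 1 fell, and of 27 excision and mismatch repair genes 1 rose and 3 fell. None of the lists had a larger share of calls than the 27.6% of all genes tested (24.1% of the p53 targets, 20.0% of the apoptosis genes, 25.0% of the checkpoint and break repair genes and 14.8% of the excision and mismatch repair genes). Sertoli cell markers moved with this step, from sums of 36.5 to 38.7 RPKM at P2.5 to sums of 79.4 to 133 RPKM at P10.5 (5 of 10 higher). Markers of undifferentiated spermatogonia moved back to 174 to 188 RPKM (8 of 10 lower). Other marker sums at P2.5 and at P10.5 were 656 to 856 and 423 to 513 RPKM for germ cells (5 of 10 lower), 17.6 to 21.9 and 2.67 to 3.57 RPKM for endothelial cells (3 of 6 lower) and 42.2 to 50.1 and 29.1 to 31.0 RPKM for pachytene (3 of 10 lower). The sums overlapped for early meiosis (5 of 11 higher and 2 lower) and for differentiating spermatogonia (3 of 6 higher and 2 lower). Their part in the result was not tested.

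**Figure D2:**
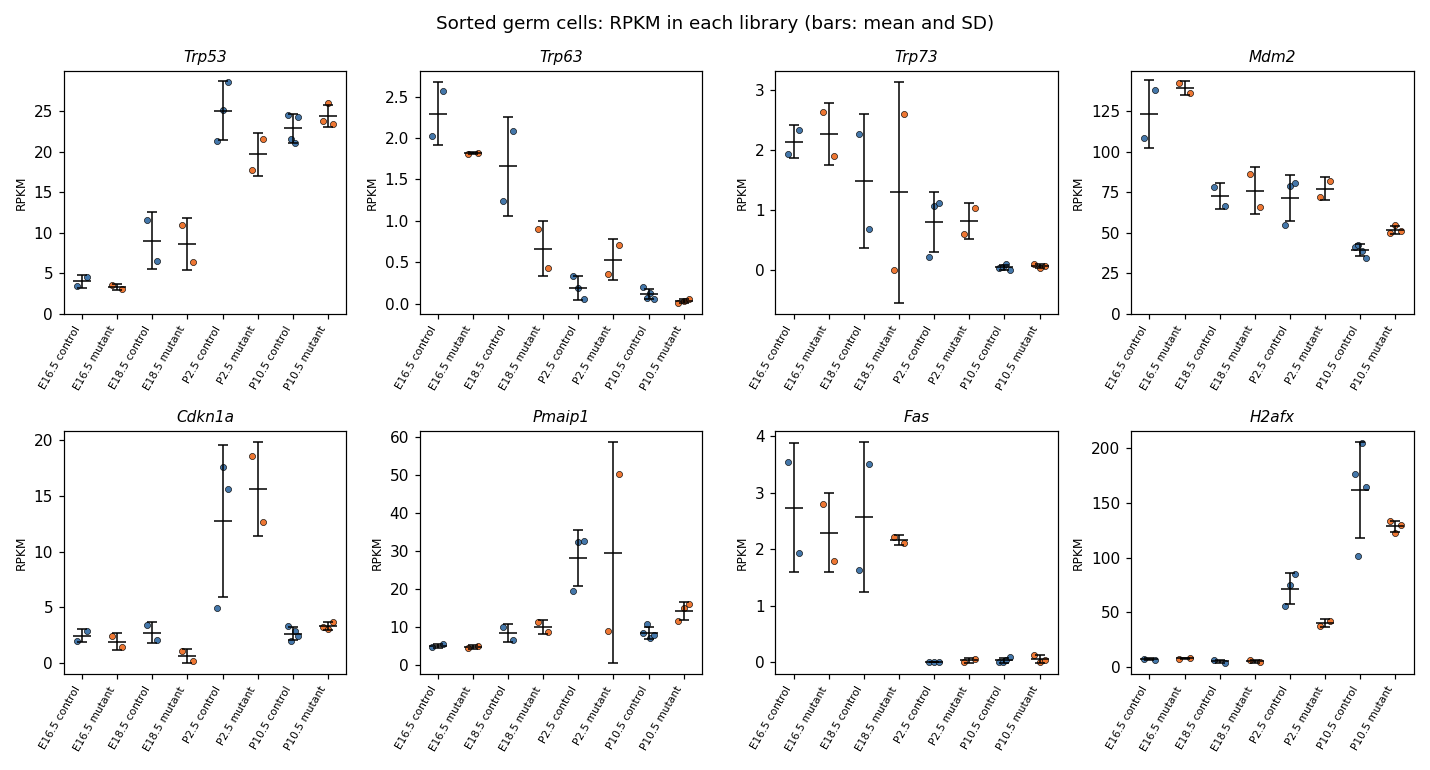
RPKM (vertical axes) of 8 of the genes in each sorted germ cell library (points) by stage and genotype (Morc1tg/+ blue, Morc1tg/tg orange), with the mean and SD of each group as bars. In controls Cdkn1a and Pmaip1 peak at P2.5 (means of 12.7 and 28.1 RPKM), Mdm2 is highest at E16.5, Fas is at or near 0 from P2.5, and H2afx climbs from E18.5 to P10.5 in both genotypes.

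Cdkn1a (chr17:29227924-29237667 of mm9, plus strand) and Mdm2 (chr10:117125944-117147814 of mm9, minus strand) are textbook targets of p53. Their start regions are shown because their levels parted between the germ cell stages: Cdkn1a rose and fell around P2.5, while Mdm2 rose at no step. In control testis both rose from P10.5 to P14.5. The sequences are those of RefSeq for GRCm38.p6, 250 bases before to 50 bases after a transcript start, written 5′ to 3′ on the gene's strand (Cdkn1a chr17:29090729-29091028, plus strand; Mdm2 chr10:117710709-117711008, minus strand). Capitals mark matches to the p53 decamer, searched on both strands, of which Cdkn1a holds 2 and Mdm2 1.
Cdkn1a: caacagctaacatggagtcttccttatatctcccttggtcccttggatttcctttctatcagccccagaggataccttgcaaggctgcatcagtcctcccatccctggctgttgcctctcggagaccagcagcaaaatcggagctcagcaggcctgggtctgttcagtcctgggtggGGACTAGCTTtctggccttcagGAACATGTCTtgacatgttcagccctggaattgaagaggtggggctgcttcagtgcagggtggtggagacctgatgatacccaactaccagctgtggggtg
Mdm2: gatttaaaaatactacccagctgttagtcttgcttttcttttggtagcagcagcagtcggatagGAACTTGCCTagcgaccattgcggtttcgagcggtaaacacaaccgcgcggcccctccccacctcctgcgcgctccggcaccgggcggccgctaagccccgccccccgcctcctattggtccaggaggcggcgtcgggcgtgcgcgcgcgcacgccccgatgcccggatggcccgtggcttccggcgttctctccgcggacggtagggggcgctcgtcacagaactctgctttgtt
A further start region of Cdkn1a in the table, not shown, holds none. The RefSeq table has 40 start regions for 32 members. The same decamer was found in 5 of the 40, 1 each of Trp53, Cdkn1a, Mdm2, Bax and Gadd45a, or 12.5%, and in 8.36% of all 32851 start regions of that length. A match describes the letters and is no measurement of binding. Trp63, Pmaip1, H2afx, Rad50 and Nbn had no entry.

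Whether the loss of MORC1 changed these genes in germ cells was asked at 4 stages. At E16.5 none of the 37 members passed edgeR's test, against 0.421% of all 16630 genes tested. At an unadjusted p under 0.05 there were 2, and DESeq2 called 0. Of those, Brca1 was at 4.51 and 4.07 RPKM in Morc1tg/tg and at 4.89 and 5.22 RPKM in Morc1tg/+ (log2 fold change -0.32, SE 0.150, unadjusted p = 0.0459, adjusted p = 0.570, edgeR). Mdc1 was at 7.39 and 7.21 RPKM in Morc1tg/tg and at 7.42 and 9.69 RPKM in Morc1tg/+ (log2 fold change -0.30, SE 0.123, unadjusted p = 0.0223, adjusted p = 0.463, edgeR). Neither overlapped between the genotypes, though the Mdc1 values nearly met. Trp53 was at 3.60 and 3.06 RPKM in Morc1tg/tg and at 3.46 and 4.58 RPKM in Morc1tg/+ (log2 fold change -0.34, SE 0.222, adjusted p = 0.697, edgeR). Cdkn1a was at 2.45 and 1.39 RPKM in Morc1tg/tg and at 2.01 and 2.85 RPKM in Morc1tg/+ (log2 fold change -0.40, SE 0.382, adjusted p = 0.835, edgeR). Both overlapped. The marker sums without overlap between Morc1tg/tg and Morc1tg/+ were 145 to 151 and 114 to 143 RPKM for undifferentiated spermatogonia (none of 10 passing), 70.8 to 77.2 and 59.3 to 69.9 RPKM for differentiating spermatogonia (none of 6 passing), 169 to 176 and 138 to 164 RPKM for early meiosis (none of 11 passing), 9.77 to 9.82 and 5.68 to 7.32 RPKM for macrophages (none of 3 passing) and 32.8 to 34.1 and 5.81 to 18.6 RPKM for blood (1 of 4 higher). Over the markers tested, the median log2 fold change was -0.11 for differentiating spermatogonia and -0.61 for macrophages, against the direction of their sums.

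At E18.5 none of 35 tested members passed in edgeR, against 0.0416% of all 14422 genes tested. DESeq2 called 0 and 1 had an unadjusted p under 0.05. That gene was Xrcc5, at 8.99 and 6.33 RPKM in Morc1tg/tg and at 12.2 and 23.1 RPKM in Morc1tg/+ (log2 fold change -1.15, SE 0.426, unadjusted p = 0.0229, adjusted p = 0.737, edgeR). Cdkn1a was at 1.03 and 0.172 RPKM in Morc1tg/tg and at 3.39 and 2.04 RPKM in Morc1tg/+. Both mutants were lower, and the difference did not pass (log2 fold change -2.12, SE 1.56, adjusted p = 0.934, edgeR). Gadd45b and Bbc3 were too low to be tested. Gadd45b had no read in the Morc1tg/+ libraries and 10 in Morc1tg/tg, at least 4.87-fold higher against the floor of 3 counts, without a test. Of the marker lists, the sums of peritubular and stromal cells stood apart, at 19.1 to 22.8 RPKM in Morc1tg/tg and 24.2 to 25.7 RPKM in Morc1tg/+ (none of 7 passing in edgeR). The median log2 fold change over these markers was 0.14, against the direction of their sum.

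At P2.5 none of 36 tested members passed in edgeR, against 0.0486% of all 14413 genes tested. DESeq2 called 0 and 1 had an unadjusted p under 0.05. That gene was H2afx, at 37.7 and 42.6 RPKM in Morc1tg/tg and at 56.1, 74.7 and 84.6 RPKM in Morc1tg/+. Both mutant libraries lay below the 3 controls (log2 fold change -0.86, SE 0.216, unadjusted p = 0.00139, adjusted p = 0.772, edgeR). Cdkn1a was at 18.6 and 12.7 RPKM in Morc1tg/tg and at 4.90, 17.6 and 15.6 RPKM in Morc1tg/+. Pmaip1 was at 9.03 and 50.1 RPKM in Morc1tg/tg and at 19.5, 32.2 and 32.6 RPKM in Morc1tg/+. Both genes overlapped between the genotypes, the Pmaip1 values of the mutants lying on either side of all controls. Fas had 1 read in the Morc1tg/tg libraries and none in the controls and was not tested. Sertoli cell markers summed to 50.2 to 54.1 RPKM in Morc1tg/tg and 36.5 to 38.7 RPKM in Morc1tg/+, and the sums of the Leydig cell and blood markers were also higher in all mutants, with no single marker of the 3 lists passing in edgeR. What such sums contribute to the members' values was not tested at these stages. The median log2 fold changes over the members were 0.00, -0.18 and -0.01 at E16.5, E18.5 and P2.5, against -0.01, 0.02 and -0.02 over all genes tested. Few genes of any kind passed at these stages, so the lack of called members does not show that they were unchanged.

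At P10.5 the mutant germ cells differed in 7 of 34 tested members, 5 higher and 2 lower. This was 20.6%, against 12.2% of all 14019 genes tested. Pmaip1 was at 11.6, 15.0 and 16.1 RPKM in Morc1tg/tg and at 8.43, 10.7, 7.02 and 7.85 RPKM in Morc1tg/+. It rose most, with every mutant library above every control (log2 fold change 0.66, SE 0.136, adjusted p = 0.00176, edgeR). Mdm2 was at 49.8, 54.7 and 51.0 RPKM in Morc1tg/tg and at 41.3, 42.5, 38.5 and 34.5 RPKM in Morc1tg/+ (log2 fold change 0.32, SE 0.0778, adjusted p = 0.00640, edgeR). Parp1 was at 106, 118 and 108 RPKM in Morc1tg/tg and at 89.7, 87.4, 80.0 and 76.2 RPKM in Morc1tg/+ (log2 fold change 0.33, SE 0.0686, adjusted p = 0.00209, edgeR). The genotypes did not overlap in these genes either, and all 3 calls were kept under every alternative run. Casp9 was at 6.99, 9.06 and 9.90 RPKM in Morc1tg/tg and at 6.66, 5.80, 6.42 and 5.59 RPKM in Morc1tg/+ (log2 fold change 0.42, SE 0.122, adjusted p = 0.0217, edgeR). Rad50 was at 42.1, 38.8 and 42.1 RPKM in Morc1tg/tg and at 34.5, 32.6, 32.2 and 29.5 RPKM in Morc1tg/+ (log2 fold change 0.27, SE 0.0743, adjusted p = 0.0155, edgeR). Both rose without overlap.

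Of the checkpoint genes, H2afx and Atr fell. H2afx was at 133, 123 and 129 RPKM in Morc1tg/tg and at 177, 101, 205 and 165 RPKM in Morc1tg/+. Replicate 2 of the controls lay below all mutants and the other controls above them (log2 fold change -0.41, SE 0.126, adjusted p = 0.0330, edgeR). Atr was at 13.1, 14.1 and 15.9 RPKM in Morc1tg/tg and at 17.5, 16.0, 15.9 and 15.1 RPKM in Morc1tg/+, with the genotypes overlapping (log2 fold change -0.24, SE 0.0816, adjusted p = 0.0478, edgeR). In edgeR's test the call on H2afx was lost without Morc1tg/tg replicate 1, 2 or 3 or Morc1tg/+ replicate 1, 3 or 4 (adjusted p from 0.0506 to 0.162), and it was lost in DESeq2 (adjusted p = 0.258). Atr was lost in edgeR's test without Morc1tg/tg replicate 1 or 2 or Morc1tg/+ replicate 1, 2, 3 or 4 (adjusted p from 0.0655 to 0.208). The same test lost Rad50 without Morc1tg/tg replicate 1 or 3 or Morc1tg/+ replicate 3 or 4 (adjusted p from 0.0503 to 0.0645) and Casp9 without Morc1tg/tg replicate 2 or 3 or Morc1tg/+ replicate 4 (adjusted p from 0.0646 to 0.181). The count of members was thus 4 without Morc1tg/tg replicate 1 or Morc1tg/+ replicate 3 and 3 without Morc1tg/+ replicate 4.

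Trp53 was at 23.8, 26.0 and 23.4 RPKM in Morc1tg/tg at P10.5 and at 24.5, 21.6, 21.1 and 24.3 RPKM in Morc1tg/+ (log2 fold change 0.01, SE 0.0836, adjusted p = 0.938, edgeR). Cdkn1a was at 3.22, 3.06 and 3.67 RPKM in Morc1tg/tg and at 3.28, 1.96, 2.91 and 2.40 RPKM in Morc1tg/+ (log2 fold change 0.26, SE 0.223, adjusted p = 0.502, edgeR). Neither passed and both overlapped, and neither Bax (0.08, SE 0.115, adjusted p = 0.739) nor Bbc3 (0.92, SE 0.603, adjusted p = 0.359) passed in edgeR. Trp63, Trp73 and Fas were too low to be tested. Among the 28 other p53 target genes tested, 4 fell and none rose. They were Phlda3 (-0.69, SE 0.190), the repair gene Ddb2 (-0.57, SE 0.143), the ribonucleotide reductase subunit Rrm2b (-0.53, SE 0.164) and Rps27l (-0.49, SE 0.109) on the log2 scale (adjusted p from 0.00302 to 0.0325, edgeR). Of 48 checkpoint and break repair genes 3 fell, of 27 excision and mismatch repair genes 1 rose and 1 fell, and of 28 apoptosis genes 5 had an unadjusted p under 0.05 in edgeR and none passed. The 14.3% of p53 targets called was near the 12.2% of all genes tested, and the shares of the checkpoint and break repair genes (6.25%) and of the excision and mismatch repair genes (7.41%) were below it. Markers of undifferentiated spermatogonia summed to 227 to 278 RPKM in Morc1tg/tg and 174 to 188 RPKM in Morc1tg/+ (7 of 10 higher). Those of early meiosis summed to 198 to 209 RPKM and 232 to 268 RPKM (6 of 11 lower). Of the markers of differentiating spermatogonia 3 of 6 were lower and 1 higher. Sertoli cell markers summed to 52.1 to 107 RPKM in Morc1tg/tg and 79.4 to 133 RPKM in Morc1tg/+, overlapping (3 of 10 lower). The sums of the general germ cell markers also overlapped (3 of 9 higher), while those of peritubular and stromal cells (2 of 7 higher) and of endothelial cells (none of 4 passing) were higher in all mutants. Over the peritubular and stromal markers tested, the median log2 fold change was -0.50, against the direction of their sum. The part of all these markers in the result was not tested. Whether the effect of the genotype differed between E16.5 and P10.5 was tested as an interaction. None of 37 members passed in edgeR, against 1.71% of all 16917 genes tested. At an unadjusted p under 0.05 there were 6, DESeq2 called 0, and 1 passed without P10.5 Morc1tg/+ replicate 2. The share of all genes at that unadjusted limit was not computed.

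**Figure D3:**
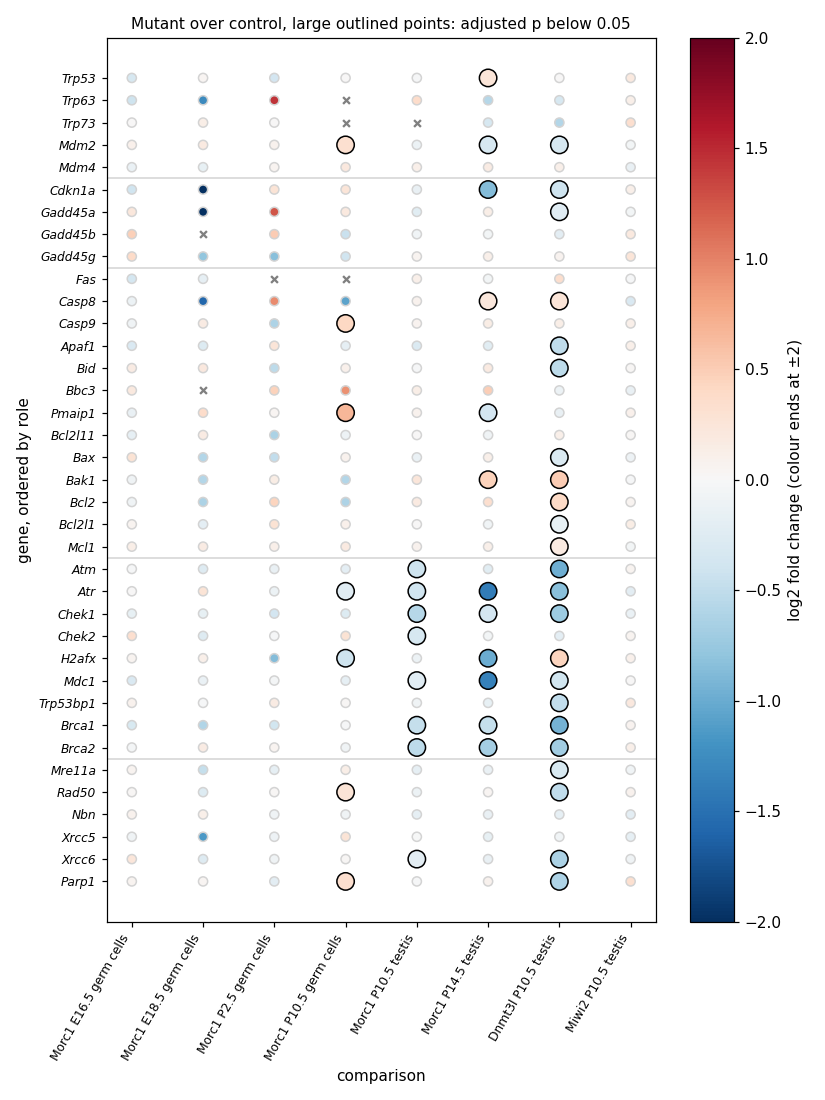
log2 fold change of mutant over control (colour, blue lower and red higher) for each of the 37 genes (rows by role) in the 8 mutant comparisons (columns). Large outlined points passed an adjusted p of 0.05 in edgeR and crosses were not tested: there are none outlined at E16.5, E18.5, P2.5 or in the Miwi2 line, and 23 in the Dnmt3l line.

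Pachytene spermatocytes first appear in the mouse testis between P10.5 and P14.5, and this window was compared in control testis. There 15 of 36 tested members rose and 5 fell, 55.6% in all, a share near that of 58.8% of all 15395 genes tested. Atr (chr9:95758016-95852063 of mm9, plus strand) was at 15.4 in Morc1+/+ and 17.8 and 15.9 in Morc1tg/+ at P10.5 and at 54.0, 45.7 and 57.9 RPKM at P14.5 (log2 fold change 1.67, SE 0.0950, adjusted p = 1.38e-06, edgeR). Mdc1, the adaptor that spreads phosphorylated H2AX (chr17:35978460-35996615 of mm9, plus strand), was at 15.1 in Morc1+/+ and 14.1 and 14.1 in Morc1tg/+ at P10.5 and at 50.1, 42.4 and 56.3 RPKM at P14.5 (log2 fold change 1.77, SE 0.0964, adjusted p = 1.15e-06, edgeR). In both genes the P14.5 libraries stood far above those of P10.5. H2afx (chr9:44142798-44144154 of mm9, plus strand) was at 40.4 in Morc1+/+ and 33.5 and 35.1 in Morc1tg/+ at P10.5 and at 49.3, 50.3 and 60.0 RPKM at P14.5. It rose less, still without overlap (log2 fold change 0.54, SE 0.0953, adjusted p = 0.000793, edgeR). Brca2 (0.76, SE 0.0634), Brca1 (0.40, SE 0.0642), Atm (0.31, SE 0.0829) and Trp53bp1 (0.30, SE 0.0642) rose on the log2 scale too, making 7 of 9 checkpoint genes (adjusted p from 8.18e-06 to 0.00931, edgeR). Of the arrest and stress effectors all 4 rose, Cdkn1a most (log2 fold change 0.98, SE 0.183, adjusted p = 0.00115, edgeR). Mdm2 rose too, from 23.2 ± 0.564 RPKM (SD, n = 3) at P10.5 to 31.6 ± 1.36 RPKM (SD, n = 3) at P14.5. Its call was kept under every alternative run.

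Within the apoptosis machinery 5 of 13 members fell and 2 rose, 53.8% in all, a share near that of 58.8% of all genes tested. The split of all genes into higher and lower was not computed for the steps between stages. Bcl2 (-1.01, SE 0.158), the pore-forming Bak1 (-0.76, SE 0.106), Bbc3, which encodes PUMA (-0.49, SE 0.176), Casp9 (-0.37, SE 0.0545) and Casp8, the caspase of death receptors (-0.19, SE 0.0642), fell on the log2 scale (adjusted p from 0.000185 to 0.0354, edgeR). Bcl2l11 (0.50, SE 0.113) and Bcl2l1 (0.17, SE 0.0484) rose (adjusted p from 0.00351 to 0.0138, edgeR). Bbc3 was lost in edgeR's test without P14.5 Morc1tg/+ replicate 3 or P10.5 Morc1+/+ replicate 1 or P10.5 Morc1tg/+ replicate 2 or 3 (adjusted p from 0.0597 to 0.120), Casp8 without P14.5 Morc1tg/+ replicate 1 or P10.5 Morc1+/+ replicate 1 or P10.5 Morc1tg/+ replicate 2 (adjusted p from 0.0623 to 0.112) and Bcl2l1 without P10.5 Morc1+/+ replicate 1 (adjusted p = 0.0593). The same test lost Gadd45a without P14.5 Morc1tg/+ replicate 1, 2 or 3 or P10.5 Morc1tg/+ replicate 2 or 3 (adjusted p from 0.0527 to 0.131). Of 29 other apoptosis genes 15 fell and 4 rose, with the largest change in Bok (log2 fold change -1.59, SE 0.111, adjusted p = 3.45e-06, edgeR). Of 48 checkpoint and break repair genes 29 rose and 5 fell. Among the first were Hus1b (1.38, SE 0.140) and Rad9b (1.16, SE 0.106), both subunits of the clamp that activates ATR (adjusted p from 1.34e-05 to 2.62e-05, edgeR). Of 29 p53 targets 10 rose and 7 fell, and of 27 excision and mismatch repair genes 11 rose and 7 fell. Together 58.6% of the p53 targets, 65.5% of the apoptosis genes, 70.8% of the checkpoint and break repair genes and 66.7% of the excision and mismatch repair genes were called, of which the first was near the 58.8% of all genes tested. Early meiosis markers moved with these members, from sums of 113 to 119 RPKM at P10.5 to sums of 464 to 645 RPKM at P14.5, all 11 higher. Pachytene markers went from sums of 38.1 to 43.0 RPKM to sums of 155 to 309.5 RPKM (8 of 9 tested higher). Of the somatic markers, 7 of 10 Sertoli cell markers were lower and 2 higher, and 6 of 8 peritubular and stromal markers were lower. Of the macrophage markers 6 of 7 were higher. The other sums that stood apart at P10.5 and at P14.5 were 360.3 to 369 and 898 to 1165 RPKM for germ cells (7 of 10 higher and 1 lower), 95.7 to 101 and 74.7 to 89.7 RPKM for undifferentiated spermatogonia (1 of 10 higher and 5 lower), 158 to 166 and 174 to 194 RPKM for differentiating spermatogonia (3 of 6 higher and 1 lower), 275 to 306 and 133 to 272 RPKM for Leydig cells (1 of 7 higher and 3 lower) and 33.8 to 38.9 and 22.3 to 23.9 RPKM for endothelial cells (2 of 6 lower). Their part in the result was not tested.

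The start regions of Atr and Mdc1, the members with the largest rises in that window, are shown for the core of the site bound by MYB proteins, of which MYBL1 is a meiotic activator. They come from RefSeq for GRCm38.p6 (Atr chr9:95857347-95857646, plus strand; Mdc1 chr17:35841248-35841547, plus strand), with capitals at each CAACNG found on either strand. Atr holds 2 that adjoin each other, and Mdc1 holds none in this window.
Atr: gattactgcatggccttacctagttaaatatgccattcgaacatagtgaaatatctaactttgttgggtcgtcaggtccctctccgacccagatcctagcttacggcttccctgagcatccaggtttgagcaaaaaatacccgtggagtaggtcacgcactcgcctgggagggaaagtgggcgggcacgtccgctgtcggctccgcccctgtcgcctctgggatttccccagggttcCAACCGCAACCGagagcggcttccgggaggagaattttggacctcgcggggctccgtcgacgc
Mdc1: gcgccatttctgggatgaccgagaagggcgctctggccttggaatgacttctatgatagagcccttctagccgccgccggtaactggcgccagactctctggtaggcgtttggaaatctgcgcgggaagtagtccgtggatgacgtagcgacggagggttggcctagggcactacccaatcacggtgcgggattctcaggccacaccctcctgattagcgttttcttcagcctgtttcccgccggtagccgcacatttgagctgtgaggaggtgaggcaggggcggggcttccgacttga
Of the 40 start regions of 32 members, 9 held CAACNG, or 22.5%, against 35% of all 32851 start regions. The 9 belong to 8 members (Trp73, Cdkn1a, Mdm2, Bbc3, Mcl1, Atr, Trp53bp1 and Gadd45a). These letters were not tied to a measurement here.

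In Morc1tg/tg testis at P10.5, 8 of 36 tested members fell and none rose, 22.2% against 15.3% of all 15165 genes tested. Of the genes tested, 9.26% fell and 6.08% rose. Of the 9 checkpoint genes 7 fell, with a median log2 fold change of -0.40, against 0.01 over all genes tested. Chek1, the kinase downstream of ATR, was at 5.61, 4.75 and 4.91 RPKM in Morc1tg/tg and at 7.50 in Morc1+/+ and 7.84 and 7.55 in Morc1tg/+. It fell most (log2 fold change -0.57, SE 0.0759, adjusted p = 0.000786, edgeR). Brca2, a gene of homologous recombination, was at 6.06, 4.59 and 5.08 RPKM in Morc1tg/tg and at 7.53 in Morc1+/+ and 7.98 and 7.17 in Morc1tg/+ (log2 fold change -0.52, SE 0.0879, adjusted p = 0.00316, edgeR). Brca1 was at 6.65, 6.02 and 6.05 RPKM in Morc1tg/tg and at 8.17 in Morc1+/+ and 8.83 and 9.10 in Morc1tg/+ (log2 fold change -0.47, SE 0.0613, adjusted p = 0.000771, edgeR). Atr was at 13.6, 11.6 and 11.8 RPKM in Morc1tg/tg and at 15.4 in Morc1+/+ and 17.8 and 15.9 in Morc1tg/+ (log2 fold change -0.40, SE 0.0735, adjusted p = 0.00522, edgeR). In these 4 genes all mutant libraries were below all 3 controls, and the calls were kept under every alternative run.

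The other 4 calls depended on single libraries, and those on Atm, Chek2 and Xrcc6 also on other settings, given in the part on processing. Mdc1 was at 12.6, 11.5 and 12.0 RPKM in Morc1tg/tg and at 15.1 in Morc1+/+ and 14.1 and 14.1 in Morc1tg/+, without overlap (log2 fold change -0.25, SE 0.0527, adjusted p = 0.00992, edgeR). Chek2 (-0.33, SE 0.0931) and Atm (-0.42, SE 0.123) and the end joining gene Xrcc6 (-0.21, SE 0.0483) fell on the log2 scale, and Atm overlapped between the genotypes (adjusted p from 0.0149 to 0.0420, edgeR). Without Morc1tg/tg replicate 3 all 4 were lost (adjusted p from 0.0522 to 0.181, edgeR), and without Morc1tg/+ replicate 3 the count was 5. Chek2 was lost in edgeR's test without Morc1tg/tg replicate 1, 2 or 3 or Morc1+/+ replicate 1 or Morc1tg/+ replicate 3 (adjusted p from 0.0531 to 0.121), Atm without Morc1tg/tg replicate 2 or 3 or Morc1tg/+ replicate 2 or 3 (adjusted p from 0.0816 to 0.181) and Xrcc6 without Morc1tg/tg replicate 3 or Morc1tg/+ replicate 3 (adjusted p from 0.0682 to 0.0746). With the preliminary libraries added and their batch as a term, 12 members passed. The share of all genes called in that run was not computed.

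H2afx was at 33.4, 33.0 and 33.1 RPKM in Morc1tg/tg and at 40.4 in Morc1+/+ and 33.5 and 35.1 in Morc1tg/+. All mutants were a little below the controls, without passing (log2 fold change -0.12, SE 0.0678, adjusted p = 0.257, edgeR). No gene of the p53 family, the arrest effectors or the apoptosis machinery passed in edgeR, with 1, 1 and 3 at an unadjusted p under 0.05, and over all members DESeq2 called 8. Trp53 was at 24.6, 25.1 and 26.1 RPKM in Morc1tg/tg and at 26.4 in Morc1+/+ and 26.4 and 25.3 in Morc1tg/+, which overlapped (log2 fold change -0.03, SE 0.0513, adjusted p = 0.733, edgeR). Bax was at 54.8, 56.9 and 52.1 RPKM in Morc1tg/tg and at 61.1 in Morc1+/+ and 59.2 and 60.4 in Morc1tg/+, with all mutants lower (log2 fold change -0.13, SE 0.0527, adjusted p = 0.123, edgeR). Of 48 other checkpoint and break repair genes 20 fell and none rose, with a median log2 fold change of -0.21, against 0.01 over all genes tested. Hus1b was among them (log2 fold change -0.84, SE 0.203, adjusted p = 0.0192, edgeR). Of 27 excision and mismatch repair genes 8 fell. Of 29 p53 targets 4 fell and 1, Dram1, rose (log2 fold change 0.41, SE 0.0987, adjusted p = 0.0196, edgeR). Of 29 apoptosis genes 2 rose and 2 fell, Birc5, which also acts in mitosis, among the latter (log2 fold change -0.54, SE 0.0989, adjusted p = 0.00485, edgeR). Against 15.3% of all genes tested, 17.2% of the p53 targets, 13.8% of the apoptosis genes, 41.7% of the checkpoint and break repair genes and 29.6% of the excision and mismatch repair genes were called, the first and second of them near that share.

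The cell type markers of these testes moved too. Early meiosis markers summed to 54.7 to 61.9 RPKM in Morc1tg/tg and 113 to 119 RPKM in controls, with all 11 lower. Germ cell markers summed to 230.3 to 263 RPKM and 360.3 to 369 RPKM (6 of 10 lower), and Sertoli cell markers to 4131 to 4644 RPKM and 3717 to 3975 RPKM (4 of 10 higher). The further sums that stood apart were 108 to 118 and 158 to 166 RPKM for differentiating spermatogonia (5 of 6 lower), 39.6 to 52.1 and 31.8 to 36.0 RPKM for macrophages (5 of 7 higher), 33.1 to 36.6 and 38.1 to 43.0 RPKM for pachytene (1 of 8 lower), 309 to 408 and 275 to 306 RPKM for Leydig cells (1 of 7 higher) and 39.5 to 43.9 and 33.8 to 38.9 RPKM for endothelial cells (2 of 6 higher). Those of peritubular and stromal cells overlapped (3 of 8 higher). Their part in the members' values was not tested.

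At P14.5, 9 of 37 members fell and 3 rose in Morc1tg/tg testis, 32.4% in all, a share near that of 34.8% of all 15283 genes tested. Of the genes tested, 20.1% fell and 14.8% rose. Atr was at 20.9, 18.6 and 19.8 RPKM in Morc1tg/tg and at 54.0, 45.7 and 57.9 RPKM in Morc1tg/+ (log2 fold change -1.40, SE 0.0942, adjusted p = 6.62e-05, edgeR). Mdc1 was at 21.2, 17.6 and 19.1 RPKM in Morc1tg/tg and at 50.1, 42.4 and 56.3 RPKM in Morc1tg/+ (log2 fold change -1.35, SE 0.111, adjusted p = 0.000111, edgeR). H2afx was at 25.1, 28.4 and 26.6 RPKM in Morc1tg/tg and at 49.3, 50.3 and 60.0 RPKM in Morc1tg/+ (log2 fold change -0.99, SE 0.0995, adjusted p = 0.000234, edgeR). In these 3 genes the mutants were far below the controls of the same age, and their H2afx values were below the P10.5 controls as well. The difference between the genotype effects at the 2 ages was tested as an interaction. It passed in these 3 members only, 8.11% of those tested and thus a share near that of 8.22% of all 15657 genes tested. The effect at P14.5 minus that at P10.5 was -1.11 for Mdc1, -1.02 for Atr and -0.88 for H2afx on the log2 scale (adjusted p from 0.000302 to 0.000961, edgeR). All 3 were kept under every alternative. The count of members was 6 in DESeq2, 5 in edgeR without P14.5 Morc1tg/tg replicate 3 and 7 without P14.5 Morc1tg/+ replicate 2.

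Brca2 was at 7.74, 7.49 and 8.73 RPKM in Morc1tg/tg at P14.5 and at 12.5, 12.6 and 13.6 RPKM in Morc1tg/+, without overlap (log2 fold change -0.68, SE 0.0747, adjusted p = 0.000315, edgeR). With Brca1 (-0.47, SE 0.108) and Chek1 (-0.36, SE 0.0795) on the log2 scale it made 6 of 9 checkpoint genes that fell (adjusted p from 0.00902 to 0.0102, edgeR). No gene of break sensing and end joining passed in edgeR, 3 of 6 had an unadjusted p under 0.05, and over all members DESeq2 called 12. Trp53 was at 29.1, 32.5 and 27.3 RPKM in Morc1tg/tg and at 25.1, 25.5 and 24.1 RPKM in Morc1tg/+, a rise without overlap (log2 fold change 0.26, SE 0.0717, adjusted p = 0.0215, edgeR). Of the genes it is known to induce, 3 members fell. Mdm2 was at 26.1, 24.4 and 24.3 RPKM in Morc1tg/tg and at 32.0, 30.1 and 32.7 RPKM in Morc1tg/+ (log2 fold change -0.33, SE 0.0592, adjusted p = 0.00311, edgeR). Cdkn1a was at 3.08, 2.52 and 1.85 RPKM in Morc1tg/tg and at 5.14, 3.39 and 5.22 RPKM in Morc1tg/+ (log2 fold change -0.87, SE 0.224, adjusted p = 0.0163, edgeR). Pmaip1 was at 4.17, 4.51 and 5.00 RPKM in Morc1tg/tg and at 5.75, 5.84 and 6.10 RPKM in Morc1tg/+ (log2 fold change -0.36, SE 0.102, adjusted p = 0.0241, edgeR). Every mutant library was below every control in these 3 genes. Bbc3 and Bax, which p53 is also known to induce, did not pass. Bbc3 was at 1.94, 1.90 and 2.20 RPKM in Morc1tg/tg and at 1.67, 1.56 and 1.09 RPKM in Morc1tg/+, higher in all mutants (log2 fold change 0.49, SE 0.185, adjusted p = 0.0710, edgeR). Bax was at 57.6, 60.9 and 59.3 RPKM in Morc1tg/tg and at 53.3, 58.3 and 53.3 RPKM in Morc1tg/+, which overlapped (log2 fold change 0.12, SE 0.0626, adjusted p = 0.176, edgeR). Fas (-0.06, SE 0.211) and Gadd45a (0.14, SE 0.112) did not pass either on the log2 scale (adjusted p from 0.382 to 0.858, edgeR). Bak1 was at 5.81, 4.99 and 5.44 RPKM in Morc1tg/tg and at 3.53, 4.39 and 3.92 RPKM in Morc1tg/+, higher in all mutants (log2 fold change 0.46, SE 0.111, adjusted p = 0.0125, edgeR). Casp8 rose slightly (log2 fold change 0.22, SE 0.0680, adjusted p = 0.0335, edgeR).

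Without P14.5 Morc1tg/+ replicate 1, edgeR lost the calls on Trp53, Cdkn1a, Bak1, Pmaip1 and Casp8 (adjusted p from 0.0542 to 0.139) and called 7 members. Trp53 (0.0698), Cdkn1a (0.0606) and Pmaip1 (0.0837) were also lost without Morc1tg/+ replicate 3, Pmaip1 without Morc1tg/tg replicate 1 (adjusted p = 0.0767, edgeR), and Casp8 without Morc1tg/tg replicate 2 or 3 or Morc1tg/+ replicate 1, 2 or 3 (adjusted p from 0.0642 to 0.139). Among the pathway lists, 29 of 48 checkpoint and break repair genes fell and 1 rose, with a median log2 fold change of -0.30, against 0.01 over all genes tested. Hus1b (-1.30, SE 0.150) and Rad9b (-1.02, SE 0.104) and the ATR activator Topbp1 (-0.88, SE 0.0678) led them on the log2 scale (adjusted p from 9.86e-05 to 0.000415, edgeR). Of 29 apoptosis genes 10 rose and 4 fell, the BH3-only gene Hrk (log2 fold change 1.09, SE 0.202, adjusted p = 0.00390, edgeR) among the first and Diablo, an antagonist of caspase inhibitors (log2 fold change -1.01, SE 0.0902, adjusted p = 0.000144, edgeR), among the second. Of 29 p53 targets 5 fell and 3 rose, and of 27 excision and mismatch repair genes 9 fell and 2 rose. The calls took in 27.6% of the p53 targets, 48.3% of the apoptosis genes, 62.5% of the checkpoint and break repair genes and 40.7% of the excision and mismatch repair genes, against 34.8% of all genes tested. Early meiosis markers summed to 145 to 172 RPKM in Morc1tg/tg and 464 to 645 RPKM in Morc1tg/+, all 11 lower. Pachytene markers summed to 43.0 to 47.9 RPKM and 155 to 309.5 RPKM (8 of 9 tested lower), and Sertoli cell markers to 4637 to 5610 RPKM and 3563 to 3898 RPKM (all 10 higher). Further sums were 383 to 437 and 898 to 1165 RPKM for germ cells (7 of 10 lower), 136 to 161 and 174 to 194 RPKM for differentiating spermatogonia (3 of 6 lower) and 88.7 to 102 and 74.7 to 89.7 RPKM for undifferentiated spermatogonia (4 of 10 higher and 1 lower), the last of which overlapped. What these shifts contribute to the members' values was not tested.

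**Figure D4:**
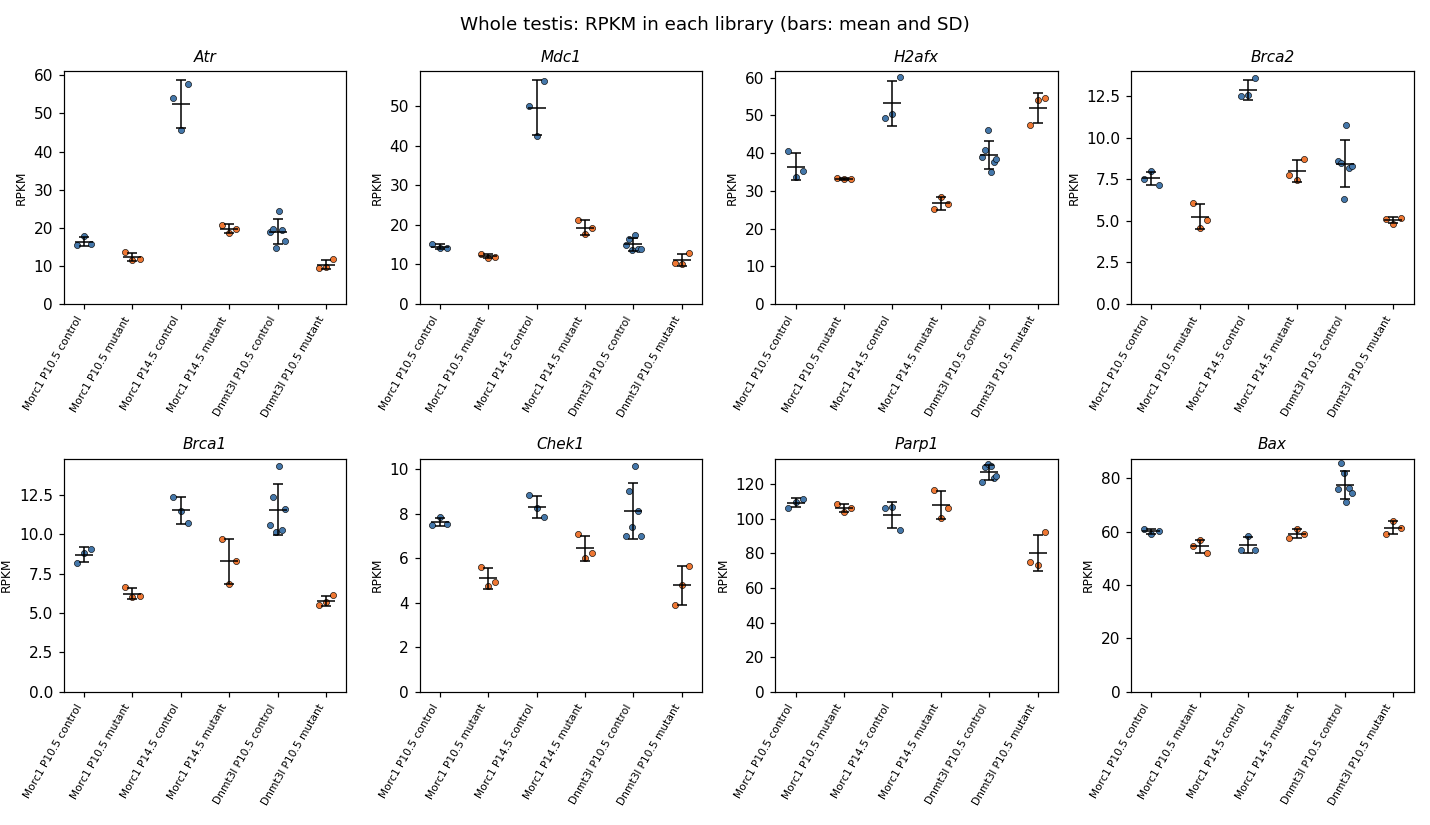
RPKM (vertical axes, from 0) of 8 of the genes in each whole testis library (points) of the Morc1 mice at P10.5 and P14.5 and of the Dnmt3l mice at P10.5 (controls blue, mutants orange), with the mean and SD of each group as bars. Atr and Mdc1 reach means of 52.5 and 49.6 RPKM in P14.5 controls and 19.8 and 19.3 RPKM in Morc1tg/tg, and Parp1 is lower in Dnmt3l-/- (80.1 RPKM) than in its controls (127 RPKM).

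The Dnmt3l line gave another mutant testis at P10.5, with 3 mutants and 6 controls. There 18 of 37 members fell and 5 rose, 62.2% against 53.9% of all 15665 genes tested. Of the genes tested, 29.0% fell and 24.9% rose. The members had a median log2 fold change of -0.24, against one between -0.01 and 0 over all genes tested. Of the 9 checkpoint genes 7 fell, 1 rose and Chek2 did not pass (log2 fold change -0.19, SE 0.114, adjusted p = 0.177, edgeR). Atm was at 5.01, 4.96 and 6.42 RPKM in Dnmt3l-/- and at 9.13 to 14.6 RPKM in controls, with a median of 10.8 RPKM. Its fall was the largest among the members called (log2 fold change -0.97, SE 0.135, adjusted p = 9.39e-05, edgeR). Brca1 was at 5.51, 5.73 and 6.14 RPKM in Dnmt3l-/- and at 10.1 to 14.4 RPKM in controls, with a median of 11.1 RPKM (log2 fold change -0.95, SE 0.106, adjusted p = 1.86e-05, edgeR). Atr was at 9.58, 9.63 and 11.8 RPKM in Dnmt3l-/- and at 14.8 to 24.5 RPKM in controls, with a median of 19.2 RPKM (log2 fold change -0.83, SE 0.131, adjusted p = 0.000232, edgeR). All mutants were below all controls in each. Chek1 (-0.72, SE 0.135), Brca2 (-0.70, SE 0.124), Trp53bp1 (-0.50, SE 0.0885) and Mdc1 (-0.39, SE 0.0949) fell likewise on the log2 scale (adjusted p from 0.000538 to 0.00425, edgeR). H2afx was at 47.5, 54.0 and 54.6 RPKM in Dnmt3l-/- and at 34.9 to 46.2 RPKM in controls, with a median of 38.6 RPKM. It rose, with all mutants above all controls (log2 fold change 0.44, SE 0.0789, adjusted p = 0.000550, edgeR).

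Parp1 was at 74.7, 73.5 and 92.0 RPKM in Dnmt3l-/- and at 121 to 132 RPKM in controls, with a median of 127 RPKM, well apart (log2 fold change -0.62, SE 0.0713, adjusted p = 2.37e-05, edgeR). With Xrcc6 (-0.63, SE 0.0673), Rad50 (-0.51, SE 0.0739) and Mre11a (-0.32, SE 0.0713) on the log2 scale, 4 of 6 break sensing and end joining genes fell (adjusted p from 1.34e-05 to 0.00222, edgeR). Of the apoptosis machinery 4 members rose and 4 fell, 61.5% against 53.9% of all genes tested. Bak1 was at 9.47, 11.2 and 9.43 RPKM in Dnmt3l-/- and at 6.81 to 8.12 RPKM in controls, with a median of 7.11 RPKM (log2 fold change 0.51, SE 0.0791, adjusted p = 0.000203, edgeR). Bid was at 10.2, 10.8 and 11.4 RPKM in Dnmt3l-/- and at 14.8 to 16.7 RPKM in controls, with a median of 16.1 RPKM (log2 fold change -0.53, SE 0.0622, adjusted p = 2.83e-05, edgeR). The groups were apart in both, Bak1 higher and Bid lower in the mutants. Bcl2 (0.40, SE 0.131), Casp8 (0.25, SE 0.0949) and Mcl1 (0.18, SE 0.0692) rose on the log2 scale, and in each the mutants and controls overlapped (adjusted p from 0.0211 to 0.0418, edgeR). Apaf1 (-0.51, SE 0.111), Bax (-0.29, SE 0.0632) and Bcl2l1 (-0.17, SE 0.0558) fell (adjusted p from 0.00205 to 0.0209, edgeR).

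Trp53 was at 24.7, 24.6 and 29.4 RPKM in Dnmt3l-/- and at 24.2 to 28.8 RPKM in controls, with a median of 27.3 RPKM. The groups overlapped and it did not pass (log2 fold change 0.01, SE 0.0717, adjusted p = 0.913, edgeR). Mdm2 (-0.34, SE 0.0555), Cdkn1a (-0.42, SE 0.122) and Gadd45a (-0.24, SE 0.0928) fell on the log2 scale, Cdkn1a with an overlap (adjusted p from 0.000282 to 0.0471, edgeR). Cdkn1a, Bcl2, Bcl2l1, Mcl1, Casp8 and Gadd45a were each lost in edgeR's test when 1 library was left out. This was Dnmt3l-/- replicate 1 for Cdkn1a, Bcl2, Bcl2l1, Mcl1 and Gadd45a (adjusted p from 0.0508 to 0.245) and replicate 2 for Bcl2, Bcl2l1, Casp8 and Gadd45a (adjusted p from 0.0772 to 0.141, edgeR). Casp8 and Gadd45a were lost without replicate 3 as well, and Mcl1, Casp8 and Gadd45a without 1 or more controls (adjusted p from 0.0512 to 0.162, edgeR). The same 6 were lost against the Dnmt3l+/- controls alone, where 17 members passed (adjusted p from 0.0659 to 0.204, edgeR). The other 17 calls were kept under every alternative.

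Of the pathway genes outside the member list, 31 of 48 checkpoint and break repair genes fell and 1 rose, with a median log2 fold change of -0.48, against one between -0.01 and 0 over all genes tested. Hus1b (log2 fold change -1.86, SE 0.258, adjusted p = 9.44e-05, edgeR) and the exonuclease Exo1 (log2 fold change -1.19, SE 0.0946, adjusted p = 1.45e-06, edgeR) led them. Of 27 excision and mismatch repair genes 21 fell and 2 rose. Of 29 apoptosis genes 13 rose and 7 fell, with Bok (0.92, SE 0.141) and Bmf (0.64, SE 0.151) among the first on the log2 scale (adjusted p from 0.000191 to 0.00359, edgeR). Of 29 p53 targets 7 rose and 12 fell. Called were 65.5% of the p53 targets, 69.0% of the apoptosis genes, 66.7% of the checkpoint and break repair genes and 85.2% of the excision and mismatch repair genes, against 53.9% of all genes tested. Germ cell markers summed to 169.7 to 209 RPKM in Dnmt3l-/- and 464 to 594 RPKM in controls, all 10 lower. Early meiosis markers summed to 44.1 to 59.1 RPKM and 104 to 189.5 RPKM (all 11 lower), and Sertoli cell markers to 4541 to 5034 RPKM and 2967 to 4050 RPKM (7 of 10 higher). In the same order, the sums were 25.9 to 28.0 and 36.1 to 42.5 RPKM for pachytene (7 of 8 lower), 113 to 137 and 223 to 272 RPKM for differentiating spermatogonia (1 of 6 higher and 5 lower), 69.3 to 74.8 and 99.2 to 116 RPKM for undifferentiated spermatogonia (3 of 10 higher and 4 lower), 45.4 to 52.5 and 31.0 to 42.5 RPKM for endothelial cells (3 of 6 higher) and 349 to 384 and 185 to 329 RPKM for Leydig cells (2 of 7 higher). Overlapping sums were those of peritubular and stromal cells (4 of 8 higher and 1 lower) and of macrophages (3 of 7 higher). What they contribute was not tested.

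Whether Dnmt3l-/- and Morc1tg/tg changed these genes by different amounts in P10.5 testis was tested as an interaction. It passed in 7 of 37 members, 18.9%, a share near that of 17.6% of all 15902 genes tested. The values are the Dnmt3l-/- effect minus the Morc1tg/tg effect, on the log2 scale in edgeR's fit. H2afx had the largest difference (0.61, SE 0.114, adjusted p = 0.00169, edgeR), having risen in Dnmt3l-/- and changed by -0.12 without passing in Morc1tg/tg. Parp1 came next (-0.55, SE 0.0881, adjusted p = 0.000577, edgeR), with a change of -0.62 in Dnmt3l-/- and of -0.02 in Morc1tg/tg. Bid (-0.45, SE 0.0921), Xrcc6 (-0.37, SE 0.0850), Brca1 (-0.44, SE 0.143), Trp53bp1 (-0.37, SE 0.122) and Rad50 (-0.34, SE 0.108) were also lower in the Dnmt3l-/- effect (adjusted p from 0.00330 to 0.0442, edgeR). H2afx, Parp1, Bid and Xrcc6 were kept under every alternative. Brca1, Trp53bp1 and Rad50 were lost and 4 members left without Dnmt3l-/- replicate 1 or 2, Dnmt3l+/+ replicate 2, Morc1tg/tg replicate 1 or 2, Morc1+/+ replicate 1 or Morc1tg/+ replicate 3 (adjusted p from 0.0531 to 0.127, edgeR). For the other 30 members, Atr, Chek1 and Brca2 included, no difference between the effects passed, which does not show that the effects were equal. The effects come from separate mouse lines, so mutation and line cannot be told apart. In Dnmt3l-/- and Morc1tg/tg the median log2 fold change of germ cell markers was -1.37 and -0.40. It was -1.77 and -0.57 for differentiating spermatogonia and 0.55 and 0.15 for Sertoli cells. Markers of macrophages, undifferentiated spermatogonia and blood moved less in Dnmt3l-/-. What these shifts contribute to the differences was not tested.

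**Figure D5:**
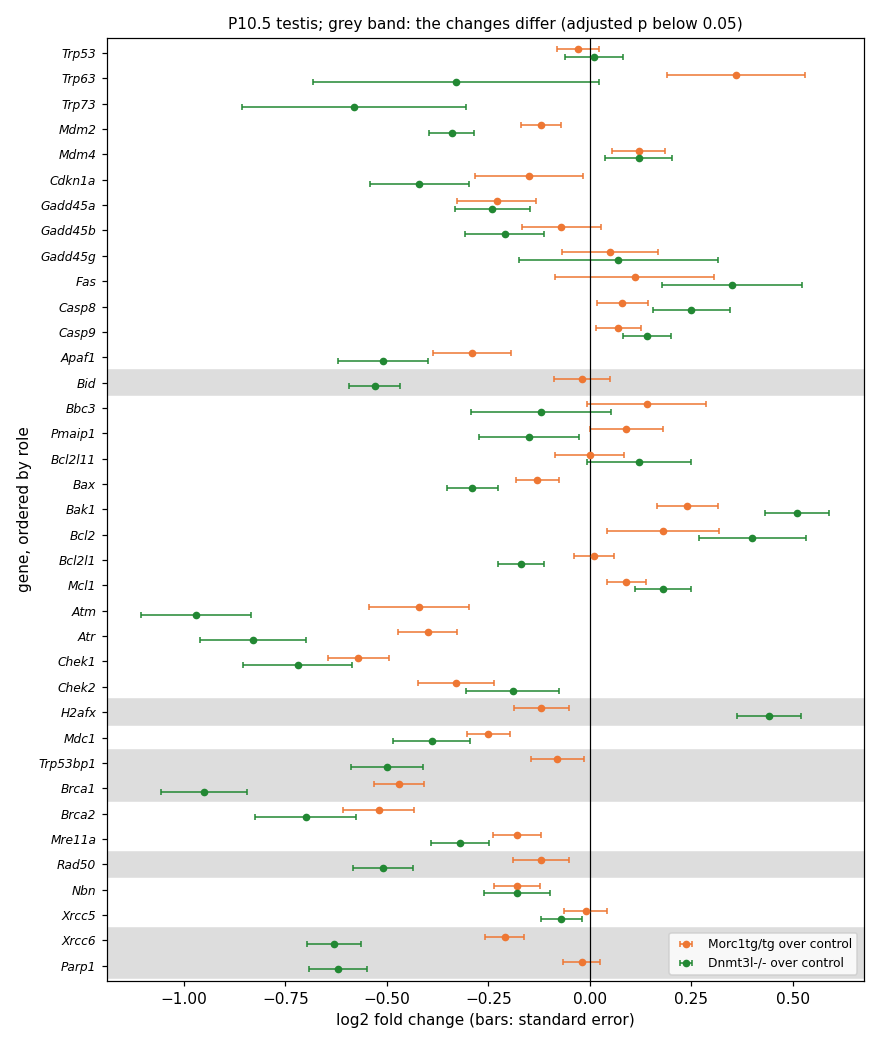
log2 fold change of each of the 37 genes (rows by role) in P10.5 testis, Morc1tg/tg over its controls (orange) and Dnmt3l-/- over its controls (green), with the standard error as bars. Grey bands mark the 7 genes whose changes differed: H2afx lies right of 0 in Dnmt3l-/- (0.44) and left in Morc1tg/tg (-0.12), and Parp1 lies at -0.62 in Dnmt3l-/- and -0.02 in Morc1tg/tg.

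In the libraries labelled Miwi2-/- none of 37 members passed edgeR's test, against 1.23% of all 15997 genes tested. At an unadjusted p under 0.05 there were 9, a limit at which the share of all genes was not computed, and DESeq2 called 2. Casp8 came nearest, at 12.5 and 11.3 RPKM in the labelled mutants and 14.8 and 14.4 RPKM in controls (log2 fold change -0.31, SE 0.0702, adjusted p = 0.0632, edgeR). Parp1 was at 106 and 101 RPKM in the labelled mutants and at 83.0 and 80.8 RPKM in controls (log2 fold change 0.32, SE 0.0755, adjusted p = 0.0680, edgeR). Neither overlapped between the groups. Atr was at 20.1 and 21.0 RPKM in the labelled mutants and at 22.4 and 24.6 RPKM in controls, lower in both mutants (log2 fold change -0.21, SE 0.0762, adjusted p = 0.159, edgeR). H2afx was at 26.3 and 24.7 RPKM in the labelled mutants and at 25.6 and 21.5 RPKM in controls, which overlapped (log2 fold change 0.10, SE 0.0855, adjusted p = 0.566, edgeR). Without the control replicate 2, 4 members passed, and without the labelled mutant replicate 1, 1 did. Shares of all genes were not computed for these runs. With a replicate block more members passed, as given in the part on processing. The deviations of same-numbered libraries correlated at 0.43 in this line. Of the pathway lists, the single call was Casp6, an executioner caspase, which fell (log2 fold change -0.43, SE 0.0685, adjusted p = 0.0116, edgeR). Early meiosis markers overlapped, at 158 to 208 RPKM in the labelled mutants and 173 to 222 RPKM in controls. The marker sums that stood apart in the labelled mutants and the controls were 559 to 561 and 507 to 508 RPKM for germ cells (2 of 10 higher), 2506 to 2590 and 2178 to 2368 RPKM for Sertoli cells (none of 10 passing), 336 to 347 and 386 to 418 RPKM for Leydig cells (1 of 7 lower), 28.2 to 31.8 and 24.3 to 26.9 RPKM for endothelial cells (none of 6 passing) and 168 to 186 and 134 to 155 RPKM for blood (1 of 5 higher). What they contribute to the members' values was not tested.

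Over the 8 mutant comparisons, 27 of the 37 members passed in at least 1, 73.0% against 61.0% of the 18076 genes tested in any of them. The 10 that passed in none were Trp63, Trp73, Mdm4, Bbc3, Bcl2l11, Fas, Nbn, Xrcc5, Gadd45b and Gadd45g. Atr was called in 4 comparisons, each time lower, and Mdm2, Chek1, Brca1, Brca2, H2afx and Mdc1 in 3 each. Of these calls, those on Atr and H2afx in P10.5 germ cells and on Mdc1 in P10.5 Morc1tg/tg testis were lost under some alternatives. The share of all genes called in 3 or 4 of the comparisons was not computed. Mdm2 rose in P10.5 germ cells and fell in P14.5 Morc1tg/tg testis and in Dnmt3l-/- testis. H2afx fell in P10.5 germ cells and P14.5 testis of Morc1tg/tg and rose in Dnmt3l-/-. Sorted cells and testis were not set against each other by a test, since the kits differ. The TruSeq v2 kit does not mark strand, and whether the kit of the sorted cells does was not found in the sources. Apaf1, Bak1, Bcl2, Bid, Brca2, Casp9, Gadd45a, Rad50, Trp53bp1, Trp63, Trp73 and Xrcc6 overlap opposite-strand genes in position. Atr overlaps a U1 gene on its own strand. Where such an overlap lies in counted exons, reads of the overlapping genes may not be told apart. Whether it does was not checked.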

How the data were processed

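The 37 members and the marker and pathway lists were chosen with earlier results of these data known. The authors trimmed the reads, discarded those that matched rRNA, mapped the rest to mm9 annotations, and counted uniquely mapped reads per gene with HTSeq at its default settings. They deposited raw counts and RPKM values per gene for each library, and tested with DESeq. The notes of the submitters name Bowtie, HTSeq and SAMtools without versions. Bisulfite, ChIP, ATAC and small RNA libraries of the series were not used here.

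Deposited counts were fitted with edgeR 4.0.16 in R 4.3.3 (quasi-likelihood, TMM, low genes removed with filterByExpr), each comparison on its own groups, stages of sorted controls together and interactions on the groups of both effects. Alternatives were DESeq2 1.42.0, RLE normalization, no filter on low counts, other control sets, a replicate block and leaving out each library in turn. The scripts were tested on simulated data. No pair of replicates agreed within counting noise (the lowest chi-square per gene over 38 pairs was 4.45). Deposited RPKM served for levels only. A summed marker level follows the highest genes of its list and can move against the list's median change.

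By rule, Trp53 and its main targets, the checkpoint genes and the members with the largest changes past the threshold were named, with libraries for those that lead a comparison, and up to 4 genes of each pathway list. Of the lists, Aen, Pidd1, Pidd, Tigar, Bcl2a1a, Rad9a, Claspn, Rad51b and Rad51d, and the markers Meiob, Pou5f2, Rhox5 and Adgre1, matched no symbol.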

Additional observations from a re-analysis of the deposited data

Results flagged for a closer look

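The effect of Morc1tg/tg on testis was larger at P14.5 than at P10.5 for 3 members by edgeR's interaction test (P14.5 minus P10.5, log2 scale): Mdc1 (-1.11, SE 0.129, adjusted p = 0.000302), Atr (-1.02, SE 0.126, adjusted p = 0.000403) and H2afx (-0.88, SE 0.129, adjusted p = 0.000961). They were 8.11% of the members, a share near that of 8.22% of all 15657 genes tested.

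The Dnmt3l-/- and Morc1tg/tg effects at P10.5 differed for 7 members by edgeR's interaction test (Dnmt3l-/- minus Morc1tg/tg, log2 scale). H2afx was positive (0.61, SE 0.114, adjusted p = 0.00169). Of the break sensing and end joining genes 3 were negative, Parp1 (-0.55, SE 0.0881, adjusted p = 0.000577), Xrcc6 (-0.37, SE 0.0850, adjusted p = 0.00723) and Rad50 (-0.34, SE 0.108, adjusted p = 0.0364). So were Bid (-0.45, SE 0.0921, adjusted p = 0.00330), Brca1 (-0.44, SE 0.143, adjusted p = 0.0442) and Trp53bp1 (-0.37, SE 0.122, adjusted p = 0.0438). They were 18.9% of the members, a share near that of 17.6% of all 15902 genes tested. Brca1, Trp53bp1 and Rad50 were each lost when certain single libraries were left out. The effects come from separate mouse lines, so mutation and line cannot be told apart, and cell type markers shifted by different amounts in them.

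Among the 4 Morc1tg/+ germ cell libraries at P10.5, 4 of the 37 members each had 1 library far from the others. Each member was judged on its own, and the library need not be the same one. The gap from that library to its nearest neighbour as a share of the range was 0.843 for Bcl2l1, 0.916 for Trp53bp1, 0.950 for Xrcc5 and 0.940 for Gadd45g, above the Dixon limit for 4 samples. Chance flags about 1 group in 20.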

How the results depend on the processing

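No member reversed under any alternative run. The count of members called moved by over 1.5 times in P10.5 Morc1tg/tg testis with the replicate block (5 against 8), in the labelled Miwi2-/- testis with DESeq2 (2 against 0) and with the replicate block (13), in the interaction of E16.5 and P10.5 without the filter on low counts (1 against 0) and in that of P10.5 and P14.5 with DESeq2 (6 against 3); the cause was not tested. In no comparison with 3 or more pairs were all correlations of the deviations of same-numbered samples over 0.1, and the labels tie no number to a batch, so the numbers were not taken as pairing. In the Miwi2 line, with 2 pairs only, that correlation was 0.43. With the replicate block 7 members passed in P10.5 germ cells, 13 in P14.5 testis, 21 in Dnmt3l-/- and 0 at E16.5, E18.5 and P2.5. The share of all genes called was computed for the main fits only. Counts under the block, DESeq2, other settings or left-out libraries thus have none beside them.

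Leaving out 1 library at a time gave counts of 3 to 7 in P10.5 germ cells, 4 to 9 in P10.5 testis, 7 to 13 in P14.5 testis, 18 to 24 in Dnmt3l-/-, 0 to 4 in the labelled Miwi2-/- and 0 at E16.5, E18.5 and P2.5. Over control stages they were 7 to 18, 21 to 24 and 8 to 13 in germ cells in order of age and 17 to 20 in testis. In the interactions they were 0 to 1 for E16.5 against P10.5, 3 to 7 for P10.5 against P14.5 and 4 to 9 for Dnmt3l against Morc1, these 3 chosen after seeing the data.

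Calls kept under all alternatives were 3 of 7 in P10.5 germ cells, 4 of 8 in P10.5 testis, 7 of 12 in P14.5 testis and 17 of 23 in Dnmt3l-/-. Over control stages they were 7 of 12, 15 of 22 and 7 of 10 in germ cells and 16 of 20 in testis. Besides single libraries, the calls lost in P10.5 testis were Atm (DESeq2, adjusted p = 0.132; block, 0.0776), Chek2 (block, 0.0680; Morc1tg/+ controls only, 0.111) and Xrcc6 (block, 0.0726). In P14.5 testis Casp8 was lost (no filter, 0.0503; block, 0.0577). In Dnmt3l-/-, Gadd45a (DESeq2, 0.0595; RLE, 0.0641; no filter, 0.0724), Mcl1 (block, 0.0565) and Casp8 (block, 0.0728) were lost. Over stages Casp9 was lost from E16.5 to E18.5 (RLE, 0.0613) and Rad50 from P2.5 to P10.5 (no filter, 0.0557). Sorted libraries of 2413679 to 14918478 reads limit what could be seen for Fas, Trp63, Trp73, Gadd45b and Bbc3. Few genes of any kind passed in Morc1tg/tg germ cells at E16.5 (70), E18.5 (6) and P2.5 (7). That no member passed there thus does not show that the members were unchanged.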
